A study of Homo sapiens with 4 samples.

Results

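The miR-200 family consists of 5 mature microRNAs (miRNAs), hsa-miR-200b, hsa-miR-200a, hsa-miR-429, hsa-miR-200c and hsa-miR-141. The members were taken by name, as guide strands only, and are 5 of the 1733 mature miRNAs counted in each library. Small RNA was sequenced from 4 cell populations with 1 library each. Hep3B and Huh7 are established human hepatoma lines and are called HCC cells here. Hep3B-C and Huh7-C are stem-like cells that were cultured from Hep3B and Huh7, respectively, and are labelled hepatic cancer stem cells (HCSCs). No agent, allele or time point separates the groups in the labels, the culture steps that gave the HCSCs are not given in the sources used here, and how many cultures or clones each HCSC population came from is not given there either. The comparison of each HCSC with its parent asks which miRNAs differ between the stem-like and the parent cells.

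MiRNAs pair through their seed, the stretch after the first base of the mature strand, with messenger RNAs and lower their translation and stability. The miR-200 family is known as a guardian of the epithelial state. Its members repress ZEB1 and ZEB2, transcription factors that silence E-cadherin and drive epithelial-mesenchymal transition (EMT), and ZEB1 and ZEB2 in turn repress the genes of the family.

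The family is encoded in 2 clusters. On chromosome 1, MIR200B (chr1:1167104-1167198), MIR200A (chr1:1167863-1167952) and MIR429 (chr1:1169005-1169087) lay within 1984 bases on the plus strand of GRCh38 (GENCODE release 29). That annotation gave them no host gene, whereas RefSeq placed all 3 inside the non-coding gene MIR200BHG (chr1:1162877-1170338). On chromosome 12, MIR200C (chr12:6963699-6963766) and MIR141 (chr12:6964097-6964191) lay within 493 bases, on the plus strand and in an intron of MIR200CHG.

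The mature sequences below, from RefSeq (GRCh38.p14, all 5 members matched by name), are shown because the seed divides the family differently from the clusters. They run 5′ to 3′, and capitals mark the seed (bases 2 to 8).
hsa-miR-200b (chromosome 1): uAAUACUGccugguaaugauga
hsa-miR-429 (chromosome 1): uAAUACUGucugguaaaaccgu
hsa-miR-200c (chromosome 12): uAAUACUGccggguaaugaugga
hsa-miR-200a (chromosome 1): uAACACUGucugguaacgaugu
hsa-miR-141 (chromosome 12): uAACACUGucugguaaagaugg
The seed AAUACUG was shared by 3 members and the seed AACACUG by the other two, and no other of the 2370 human mature miRNAs in the RefSeq table held either. The 2 seeds differed at 1 base. Each cluster held both seeds. Members from different clusters were the most alike in sequence, since hsa-miR-200b and hsa-miR-200c matched at 20 of 22 bases, as did hsa-miR-200a and hsa-miR-141. How reads were shared between such near-identical members is not given in the sources used here. In Huh7, hsa-miR-200b had 0 counts beside 316 counts of hsa-miR-200c, so reads of hsa-miR-200c were not counted as hsa-miR-200b there. In Huh7-C, hsa-miR-200b had 2 counts beside 373 of hsa-miR-200c, and the source of those 2 was not tested. Whether reads of hsa-miR-200b were counted as hsa-miR-200c was not tested either.

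The libraries held between 1739278 (Hep3B) and 5741567 (Huh7) miRNA counts, which made up 10.36% of all Hep3B reads, against 35.17% of Hep3B-C, 54.05% of Huh7 and 37.75% of Huh7-C reads. Levels were expressed in TPM, here counts per 1e+06 total reads of the library, so that 1 read was worth between 0.0596 and 0.0941 TPM. Because the share of reads that were miRNA differed between libraries, the scaling moved every change. The median log2 fold-change of all miRNAs with at least 10 counts was 1.42 in Hep3B-C against Hep3B and -0.66 in Huh7-C against Huh7. With miRNA counts as the library size it was -0.34 and -0.15. Changes within the pairs are therefore also given relative to that median. With 1 library per condition no difference had a replicate check, the tests compared libraries and not conditions, and 95% intervals cover counting error only.

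The family was abundant in Hep3B and Hep3B-C and far lower in Huh7 and Huh7-C. Summed over the 5 members it reached 403.5 TPM in Hep3B (6772 counts), 1206 TPM in Hep3B-C (18620 counts), 32.95 TPM in Huh7 (350 counts) and 36.96 TPM in Huh7-C (396 counts). The chromosome 1 cluster supplied most of it in the Hep3B libraries and next to none in the Huh7 libraries.

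**Figure D1:**
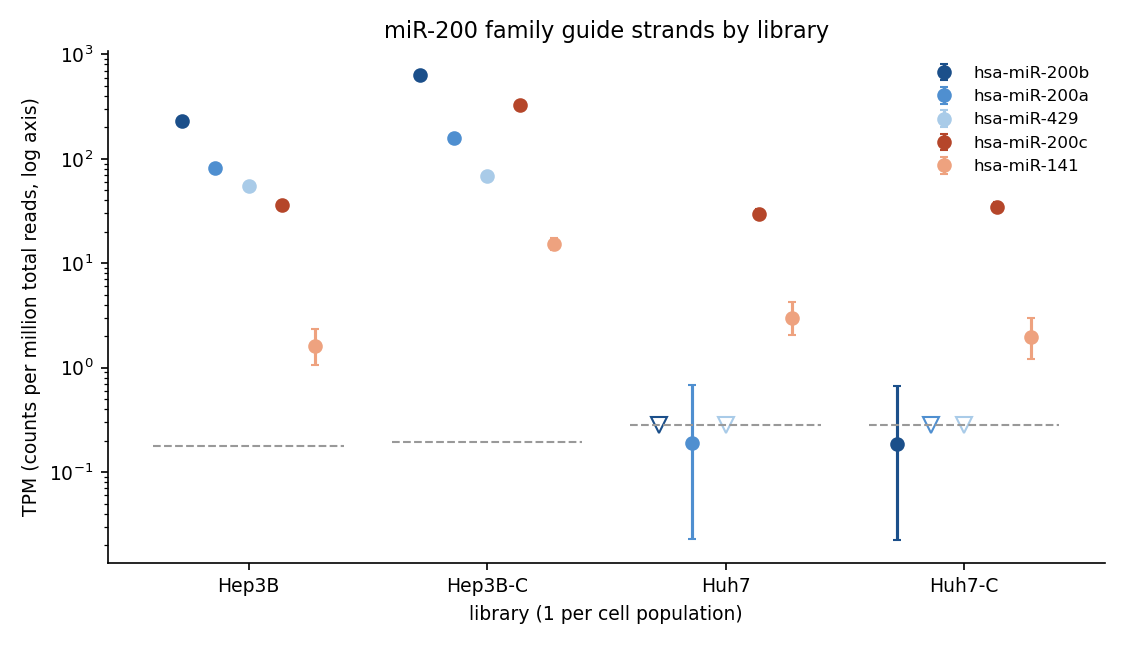
TPM of each guide strand (log axis) in the 4 libraries, with 1 library per cell population, where bars are exact 95% Poisson intervals, dashed lines mark the level of 3 counts and open triangles at that line stand for 0 counts. The chromosome 1 members (blue) lie between 54.58 and 635.5 TPM in Hep3B and Hep3B-C and at 2 counts or fewer in Huh7 and Huh7-C, while the chromosome 12 members (red) are above 3 counts in all 4 libraries.

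Among the chromosome 1 members, hsa-miR-200b, the most abundant of the family in the Hep3B libraries, had 3850 counts (229.4 TPM) in Hep3B, 9812 (635.5 TPM) in Hep3B-C, 0 in Huh7 and 2 (0.1867 TPM) in Huh7-C. Its chromosomal neighbour hsa-miR-200a, which carries the AACACUG seed, had 1373 counts (81.81 TPM), 2434 (157.6 TPM), 2 (0.1883 TPM) and 0 in the same order. The third member, hsa-miR-429, had 916 counts (54.58 TPM) in Hep3B, 1053 (68.2 TPM) in Hep3B-C and 0 in both Huh7 libraries. All 3 were thus high in both Hep3B libraries and at or under 2 counts in both Huh7 libraries.

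Of the chromosome 12 members, hsa-miR-200c had 606 counts (36.11 TPM) in Hep3B, 5085 (329.3 TPM) in Hep3B-C, 316 (29.75 TPM) in Huh7 and 373 (34.81 TPM) in Huh7-C. Its TPM in Hep3B-C stood apart from the other three libraries, which lay close together. Per 1e+06 miRNA counts it was also highest in Hep3B-C (936.4), but the rest did not lie close together, with 348.4 in Hep3B, 55.04 in Huh7 and 92.21 in Huh7-C. The least abundant member of the Hep3B libraries, hsa-miR-141, had 27 counts (1.609 TPM) in Hep3B, 236 (15.28 TPM) in Hep3B-C, 32 (3.013 TPM) in Huh7 and 21 (1.96 TPM) in Huh7-C. It was likewise highest in Hep3B-C.

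The order of the members differed between libraries. In Hep3B it was hsa-miR-200b, hsa-miR-200a, hsa-miR-429, hsa-miR-200c and hsa-miR-141. In Hep3B-C, hsa-miR-200c had moved up to second place. Every neighbouring pair in these orders was separated beyond counting error, the closest being hsa-miR-200a over hsa-miR-429 in Hep3B at a ratio of 1.5 (1.38 to 1.63). In Huh7 and Huh7-C, hsa-miR-200c came first and hsa-miR-141 second, and the 3 chromosome 1 members could not be ordered at this depth. By abundance among all miRNAs, hsa-miR-200b ranked 40 in Hep3B and 45 in Hep3B-C, and hsa-miR-200c ranked 92 in Hep3B and 53 in Hep3B-C, against 134 in Huh7 and 117 in Huh7-C.

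In the comparison of Hep3B-C with Hep3B, the chromosome 12 members rose the most and the chromosome 1 members moved by unequal amounts. A miRNA was called by the study's rule, a fold-change of 2 or more in either direction with a Benjamini-Hochberg adjusted p of 0.01 or less in the exact Poisson test (Audic and Claverie). By this rule 3 of the 5 members were up-regulated and 0 down-regulated, where 33.0% of the 834 miRNAs tested were up-regulated and 2.52% down-regulated. With total miRNA counts as library sizes, 2 members were up-regulated and 1 down-regulated, where 5.28% of all tested miRNAs were up-regulated and 13.4% down-regulated. TMM library sizes gave the same member counts (2 and 1, where 8.51% and 9.11% of all were called), and DESeq2 size factors gave 2 and 0 (11% and 7.07%). Hsa-miR-200c and hsa-miR-141 were the members called up under those 3 scalings.

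Both chromosome 12 members were called up under either scaling in the exact Poisson test. The log2 fold-change of hsa-miR-200c was 3.19 (3.07 to 3.31), or 9.12-fold, and 1.43 with total miRNA counts. For hsa-miR-141 it was 3.25 (2.67 to 3.88), or 9.50-fold, with an adjusted exact Poisson p of 6.91e-46, and 1.49 with total miRNA counts (adjusted p 6.28e-08). Relative to the median miRNA these changes were 1.77 and 1.83. With total reads as library sizes, both calls held when a biological coefficient of variation of 0.2 was assumed in edgeR's exact test. Neither held in that test at 0.4 (adjusted p 0.0116 for hsa-miR-200c and 0.0152 for hsa-miR-141). At 0.2 that test also called hsa-miR-200b up (adjusted p 0.00233), although its change relative to the median miRNA was 0.05. It was not run with total miRNA counts, and the share of all miRNAs called in it is not given here.

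The chromosome 1 members followed in the order of their position along the chromosome, which was also their order of abundance in Hep3B. The log2 fold-change of hsa-miR-200b was 1.47 (1.42 to 1.52), which was called up, and fell to -0.29 with total miRNA counts. That of hsa-miR-200a was 0.95 (0.85 to 1.04, adjusted exact Poisson p 9.83e-87), just under the required 2-fold, and -0.82 with total miRNA counts. That of hsa-miR-429 was 0.32 (0.19 to 0.45, adjusted exact Poisson p 2.86e-06), and -1.44 with total miRNA counts, where it was called down. Relative to the median miRNA the 3 values were 0.05, -0.47 and -1.10. The direction of change of each chromosome 1 member thus depended on the scaling.

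**Figure D2:**
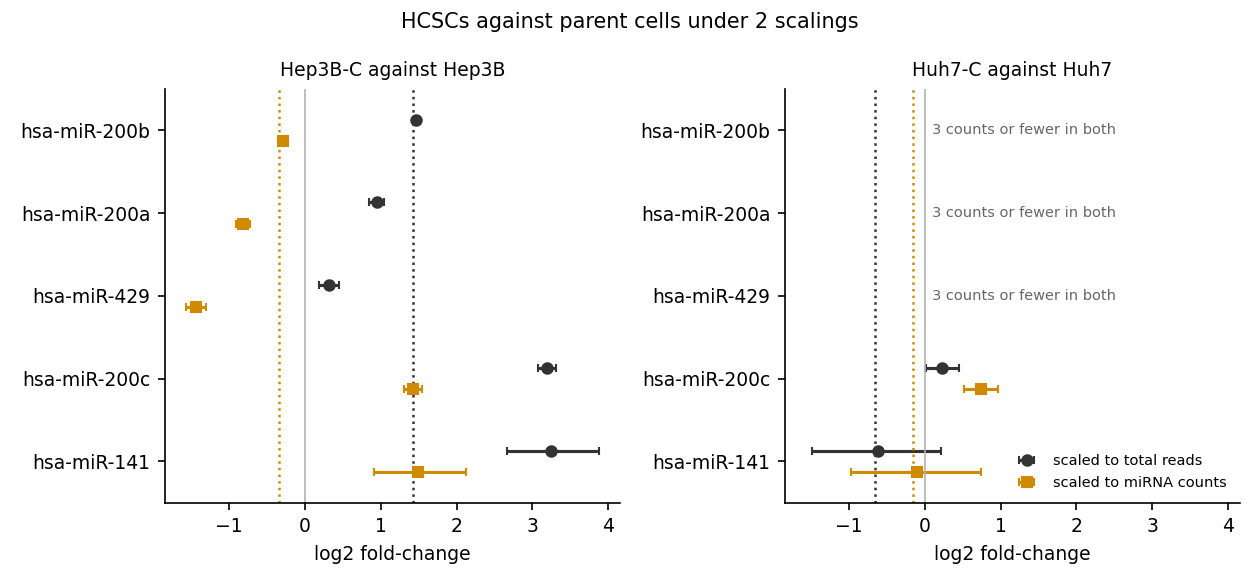
Log2 fold-change of each member in HCSCs against parent cells (left, Hep3B-C against Hep3B; right, Huh7-C against Huh7), scaled to total reads (circles) or to total miRNA counts (squares), with 95% counting intervals as bars and the median of all miRNAs under each scaling as a dotted line in the same colour. In the Hep3B pair hsa-miR-200c and hsa-miR-141 lie right of both medians under both scalings, whereas the 3 chromosome 1 members lie right of 0 under the first scaling and left of it under the second.

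A ratio of members within a library needs no scaling. The counts of the chromosome 1 cluster were 9.70 times those of the chromosome 12 cluster in Hep3B and 2.50 times in Hep3B-C. This was a 3.88-fold fall of the ratio (odds ratio 0.258, 0.236 to 0.281), with an adjusted p of 4.58e-256 in a 2-sided Fisher's exact test over the 4 ratio tests of clusters and seeds. The share of family counts from chromosome 1 was 90.7% (Clopper-Pearson interval, 89.9% to 91.3%) in Hep3B and 71.4% (70.8% to 72.1%) in Hep3B-C. Pooled over its members, the chromosome 1 cluster changed 2.35-fold (log2 fold-change 1.24, 1.19 to 1.28) and the chromosome 12 cluster 9.14-fold (3.19, 3.07 to 3.31), and with total miRNA counts the values were -0.53 and 1.43 on the log2 scale. The sum over the family was 2.99-fold higher in Hep3B-C, but 1.14-fold lower with total miRNA counts.

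**Figure D3:**
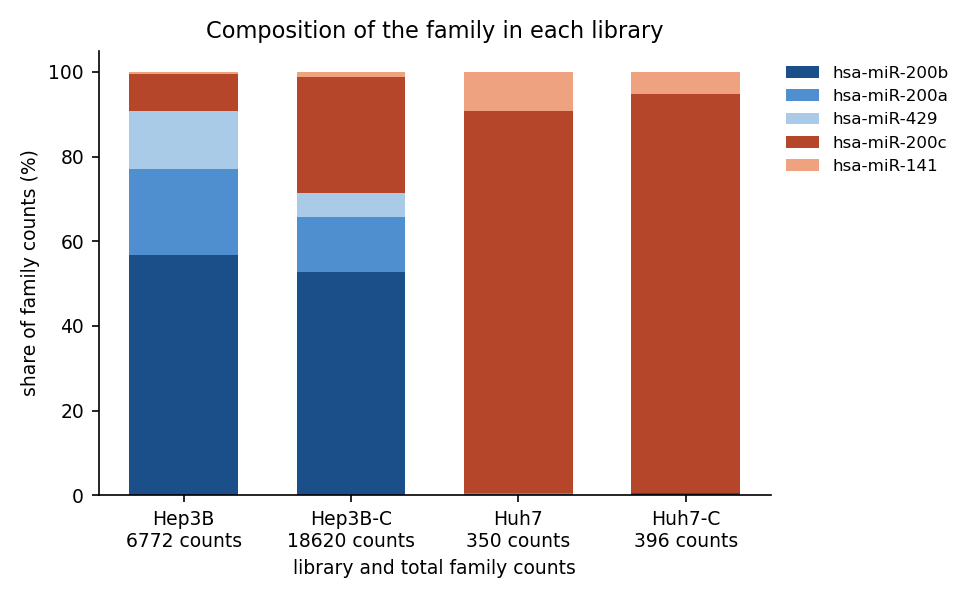
Share of family counts (%) from each member in each library, with the total family counts under each bar and 1 library per bar. Chromosome 1 members (blue) make up 90.7% of the family in Hep3B, 71.4% in Hep3B-C and under 1% in Huh7 and Huh7-C.

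Within the chromosome 12 cluster, the ratio of hsa-miR-200c to hsa-miR-141 was 22.4 in Hep3B and 21.5 in Hep3B-C. The odds ratio of 0.96 had an interval of 0.614 to 1.45 (Fisher's exact test, adjusted p 0.919 over 12 ratios within clusters and hairpins). Within the chromosome 1 cluster all 3 ratios shifted towards the member nearer the start of the host gene, which was also the more abundant member. The 2 descriptions cannot be told apart here. The ratio of hsa-miR-200b to hsa-miR-200a went from 2.80 to 4.03 (adjusted p 1.01e-19, Fisher's exact test), that of hsa-miR-200a to hsa-miR-429 from 1.5 to 2.31 (adjusted p 6.89e-14) and that of hsa-miR-200b to hsa-miR-429 from 4.20 to 9.32 (adjusted p 1.42e-56). The last ratio follows from the other 2, and all 3 restate the order of the fold-changes above. The interval of the ratio on chromosome 12, where hsa-miR-141 had 27 counts in Hep3B, includes a shift as large as that of hsa-miR-200b to hsa-miR-200a (odds ratio 1.44).

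Split by seed, the members with AAUACUG (hsa-miR-200b, hsa-miR-429 and hsa-miR-200c) summed to 320.1 TPM in Hep3B, 1033 TPM in Hep3B-C, 29.75 TPM in Huh7 and 35.0 TPM in Huh7-C. Those with AACACUG (hsa-miR-200a and hsa-miR-141) summed to 83.42, 172.9, 3.201 and 1.96 TPM in the same order. The first seed made up 79.3% of family counts in Hep3B and 85.7% in Hep3B-C, a change in the ratio of the seeds from 3.84 to 5.97 (odds ratio 1.56, 1.45 to 1.67, adjusted p 2.15e-32, Fisher's exact test). In the Huh7 pair it made up 90.3% and 94.7%, and the ratio went from 9.29 to 17.9 (odds ratio 1.92, 1.06 to 3.56, adjusted p 0.0327, Fisher's exact test). Nearly all counts of that ratio were hsa-miR-200c and hsa-miR-141, as the chromosome 1 members added 2 counts in each Huh7 library. Alone, hsa-miR-200c to hsa-miR-141 had an odds ratio of 1.8 (0.982 to 3.35, adjusted p 0.0786, Fisher's exact test). The AAUACUG seed was the more abundant in all 4 libraries. Without the most abundant member of each seed, the seed ratio moved the other way in the Hep3B pair (log2 odds ratio -1.12, Fisher's exact p 4.93e-05).

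In the comparison of Huh7-C with Huh7, 0 of the 5 members were called by the same exact Poisson test and rule, where 2.98% of the 772 tested miRNAs were up-regulated and 17.1% down-regulated. With total miRNA counts 0 members were called as well, where 6.99% of all were up-regulated and 9.59% down-regulated, and so with TMM library sizes (4.92% and 11.7%) and DESeq2 size factors (7.38% and 9.20%). The log2 fold-change of hsa-miR-200c was 0.23 (0.01 to 0.45, adjusted exact Poisson p 0.104), 0.74 with total miRNA counts and 0.89 relative to the median miRNA. That of hsa-miR-141 was -0.62 (-1.49 to 0.22, adjusted exact Poisson p 0.253), -0.10 with total miRNA counts and 0.04 relative to the median miRNA. The ratio of hsa-miR-200c to hsa-miR-141 was 9.88 in Huh7 and 17.8 in Huh7-C (odds ratio 1.8, 0.982 to 3.35, adjusted p 0.0786, Fisher's exact test). The chromosome 1 members were at or under 3 counts in both libraries, so no change in them was detectable at this depth. Whether the changes of hsa-miR-200c and hsa-miR-141 in the Hep3B pair differ from those in the Huh7 pair was not tested.

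The lines were compared next, in comparisons that share their libraries with the pairs above. Huh7 had the chromosome 1 cluster at 0.051% (0.0062% to 0.19%) of the Hep3B level, and Huh7-C had it at 0.022% (0.0026% to 0.078%) of the Hep3B-C level, with 2 counts in each Huh7 library. As a ratio the gap was 1943-fold (log2 fold-change -10.92, -13.97 to -9.07) between the parents and 4614-fold (-12.17, -15.22 to -10.32) between the HCSCs, and with total miRNA counts it was 10133-fold and 4954-fold. Against 0 counts, read as 3 counts per library, hsa-miR-200b was at least 812-fold and hsa-miR-429 at least 193-fold lower in Huh7 than in Hep3B. With 2 counts in Huh7, hsa-miR-200a was 435-fold lower (log2 fold-change -8.76, -11.81 to -6.91). In Huh7-C against Hep3B-C, with 0 counts again read as 3, hsa-miR-200a was 563-fold and hsa-miR-429 244-fold lower (upper ends of the log2 intervals -8.84 and -7.63). There hsa-miR-200b, with 2 counts, had a log2 fold-change of -11.73 (-14.78 to -9.88). All 3 chromosome 1 members were called down in both line comparisons, where 9.18% of 828 miRNAs were called down in Huh7 against Hep3B and 23.0% of 868 in Huh7-C against Hep3B-C (32.4% and 13.6% were called up). With total miRNA counts the 3 members were again called down, beside 30.1% and 24.4% of all miRNAs.

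The chromosome 12 members did not share this pattern between the parent lines. In Huh7 against Hep3B, hsa-miR-200c had a log2 fold-change of -0.28 (-0.48 to -0.08, adjusted exact Poisson p 0.0107) and hsa-miR-141 of 0.90 (0.12 to 1.70, adjusted exact Poisson p 0.0435), and neither was called. With total miRNA counts the values were -2.66 and -1.48 and both were called down, where 30.1% of all miRNAs were. In Huh7-C against Hep3B-C, hsa-miR-200c was 9.46-fold lower (log2 fold-change -3.24, -3.40 to -3.09) and hsa-miR-141 7.80-fold lower (-2.96, -3.68 to -2.32, adjusted exact Poisson p 1.84e-31), and both were called down. The ratio of hsa-miR-200c to hsa-miR-141 was lower in Huh7 than in Hep3B (odds ratio 0.44, 0.249 to 0.774, adjusted p 0.00698, Fisher's exact test).

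Few miRNAs abundant in both libraries of a line had 3 counts or fewer in both libraries of the other. Of the 91 miRNAs with at least 500 counts in both Hep3B libraries, 4 (4.40%) had 3 counts or fewer in both Huh7 libraries. These were hsa-miR-200b, hsa-miR-200a, hsa-miR-429 and hsa-miR-483-5p. The opposite pattern was held by 2 of 99 (2.02%), hsa-miR-224 and hsa-miR-452. This count and the names outside the family were chosen after the values were seen. It does not measure the width of a gap. Hsa-miR-10b, for example, was left out with 90 counts in Hep3B, yet was 312-fold higher in Huh7 than in Hep3B. Between the HCSCs it was 562-fold higher in Huh7-C.

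The passenger strand is the other arm of the hairpin, which is usually discarded when the guide is loaded, and it was not among the members. Hsa-miR-200b* had 485 counts in Hep3B and 1428 in Hep3B-C, with 0 in Huh7 and 1 in Huh7-C, and hsa-miR-200a* had 188, 515, 0 and 0. Both therefore followed the chromosome 1 guides in being high only in the Hep3B libraries. In Hep3B-C against Hep3B their log2 fold-changes were 1.68 (1.53 to 1.83) and 1.57 (1.33 to 1.82), both called up, and -0.08 and -0.19 with total miRNA counts, neither called. Relative to the median miRNA they were 0.26 and 0.15.

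As a share of the reads of its hairpin, hsa-miR-200b* was 11.2% in Hep3B (10.3% to 12.2%) and 12.7% in Hep3B-C (12.1% to 13.3%, adjusted p 0.0193, Fisher's exact test), and hsa-miR-200a* was 12% (10.5% to 13.8%) and 17.5% (16.1% to 18.9%, adjusted p 3.91e-06). The passenger of hsa-miR-200a was thus a larger part of its hairpin in Hep3B-C. The ratio of the 2 passengers, hsa-miR-200b* to hsa-miR-200a*, was 2.58 and 2.77 (odds ratio 1.07, 0.878 to 1.31, adjusted p 0.576, Fisher's exact test). For their guides the odds ratio was 1.44 (1.33 to 1.55).

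On chromosome 12, hsa-miR-200c* had 0 counts in all 4 libraries, which allows at most 0.495% of the guide counts of Hep3B, 0.059% of those of Hep3B-C, 0.949% of those of Huh7 and 0.804% of those of Huh7-C. Hsa-miR-141* had 0 counts in Hep3B and 11 in Hep3B-C, with 7 in Huh7 and 1 in Huh7-C. It was the only detected passenger strand of the family with more counts in Huh7 than in Hep3B.

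**Figure D4:**
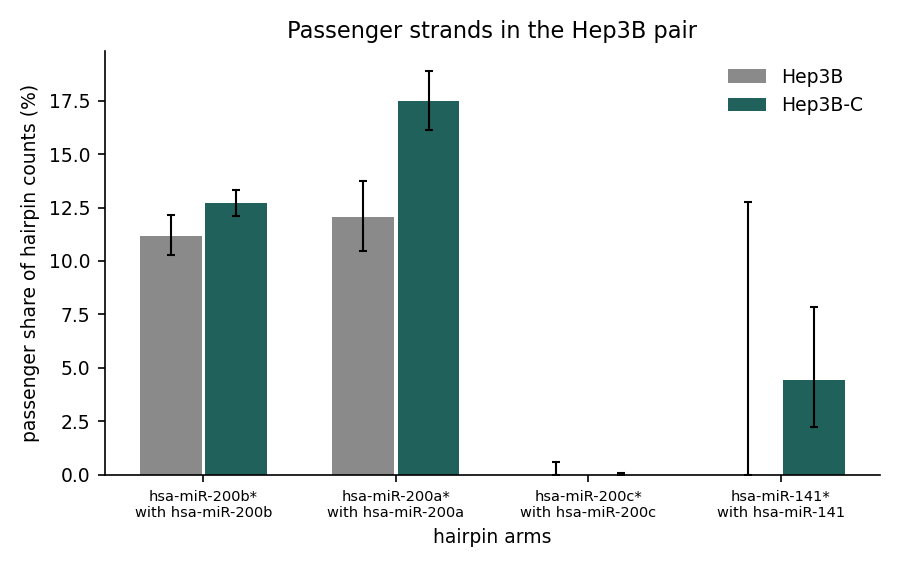
Passenger strand counts as a share (%) of passenger plus guide counts of the same hairpin in Hep3B (grey) and Hep3B-C (green), with exact 95% binomial intervals as error bars and 1 library per bar. The share of hsa-miR-200a* rises from 12% to 17.5% between the libraries, and hsa-miR-200c* has 0 counts in each.

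Since the members of a cluster share a host gene, the RefSeq promoters of both host genes are shown for the sites that ZEB1 and ZEB2 bind, E-boxes with the letters CACCTG, or CAGGTG on the opposite strand. The windows run from 250 bases before to 50 bases after the start on the plus strand of GRCh38.p14, and capitals mark each match on either strand.
MIR200BHG (chr1:1162627-1162926): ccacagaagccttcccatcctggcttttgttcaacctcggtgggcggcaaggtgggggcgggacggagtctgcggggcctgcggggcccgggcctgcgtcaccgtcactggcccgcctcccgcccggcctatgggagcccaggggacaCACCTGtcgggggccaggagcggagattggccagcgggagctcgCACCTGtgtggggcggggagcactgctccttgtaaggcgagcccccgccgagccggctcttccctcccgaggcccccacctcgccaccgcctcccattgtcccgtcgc
MIR200CHG (chr12:6962995-6963294): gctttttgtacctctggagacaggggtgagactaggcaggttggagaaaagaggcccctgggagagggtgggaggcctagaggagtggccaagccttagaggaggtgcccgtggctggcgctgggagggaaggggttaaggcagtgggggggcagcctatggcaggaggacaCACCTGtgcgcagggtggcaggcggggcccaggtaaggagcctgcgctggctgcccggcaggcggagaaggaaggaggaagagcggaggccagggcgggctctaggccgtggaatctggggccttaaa
The window of MIR200BHG held 2 matches, beginning 102 and 58 bases before the start, and that of MIR200CHG held 1, beginning 78 bases before it. Of 35116 promoters of this length, 20.6% held at least 1 match and 3.49% held 2 or more, and a match describes these letters only. Levels of ZEB1, ZEB2 and E-cadherin were not analysed here.

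The fit over both lines together could speak for the chromosome 12 members only, since the chromosome 1 members passed its filter through the Hep3B libraries alone and had 0 to 2 counts in the Huh7 libraries. In edgeR's quasi-likelihood test with the parent line as a block, 0 of the 5 members and 0 of the 443 miRNAs tested were called at an adjusted p of 0.05 (0.00% in each direction), and 31 miRNAs, none of them members, had an unadjusted p under 0.05. The log2 fold-change was 1.39 for hsa-miR-200c (adjusted p 0.584) and 1.02 for hsa-miR-141 (0.698). DESeq2 with the same block called 4 miRNAs up and 1 down, again with 0 members called, and 1 member, hsa-miR-200c, had an unadjusted p under 0.05. These fits had 1 residual degree of freedom.

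Other miRNAs with epithelial or mesenchymal associations were read beside the family. Of the 4 epithelial miRNAs tested, hsa-miR-182, hsa-miR-183 and hsa-miR-96, which form a cluster of their own, were called up in Hep3B-C against Hep3B (log2 fold-changes 2.24, 2.12 and 1.56), beside 33.0% of all miRNAs. With total miRNA counts 0 of the 4 were called, where 5.28% of all miRNAs were called up and 13.4% down. In Huh7-C against Huh7, 1 of the 4 was called, hsa-miR-96, which was down-regulated (-1.40), beside 17.1% of all miRNAs. With total miRNA counts 0 of the 4 were called there (-0.88 for hsa-miR-96), where 6.99% of all miRNAs were called up and 9.59% down. Hsa-miR-205 had 0 counts in all 4 libraries, and hsa-miR-203, with 2 to 27 counts per library, was called in neither pair. Hsa-miR-182 was far above the family in each library, from 6791 TPM in Hep3B to 32150 TPM in Hep3B-C.

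Of the mesenchymal miRNAs, 6 were tested in the Hep3B pair, with 1 called up and 2 called down, and 5 in the Huh7 pair, with 0 up and 3 down. Of all miRNAs 33.0% were called up and 2.52% down in the Hep3B pair, and 2.98% up and 17.1% down in the Huh7 pair. With total miRNA counts the mesenchymal list had 0 up and 2 down in each pair. Hsa-miR-199a-3p, which had the same counts as hsa-miR-199b-3p in all 4 libraries, was called down in both pairs (log2 fold-changes -1.25 and -2.48). Hsa-miR-143 was called up in Hep3B-C (2.12) and down in Huh7-C (-1.36), and neither call held with total miRNA counts (0.36 and -0.84, adjusted exact Poisson p 0.18 for the latter). Of 6 miRNAs linked to EMT or to Dicer, hsa-miR-9 (2.57) and hsa-miR-107 (2.87) were called up and hsa-miR-10b (-1.46) down in Hep3B-C, and 0 were called in Huh7-C. With total miRNA counts 1 was called up, hsa-miR-107 (1.11), and 3 were called down in Hep3B-C, hsa-miR-10b (-3.23), hsa-miR-221 (-1.76) and hsa-miR-222 (-1.14), while hsa-miR-9 (0.81) was not called. Of all miRNAs, 5.28% were called up and 13.4% down in that comparison.

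Markers of other cell types moved with some of these comparisons. The 6 blood cell markers summed to 0.4767 TPM in Hep3B, 0.06477 TPM in Hep3B-C, 74.94 TPM in Huh7 and 0.4666 TPM in Huh7-C, and of the Huh7 sum 773 of 796 counts were hsa-miR-451, with hsa-miR-223, hsa-miR-144 and hsa-miR-150 at 0. The 5 hepatocyte markers summed to 11010 TPM in Hep3B, 35500 TPM in Hep3B-C, 115700 TPM in Huh7 and 59630 TPM in Huh7-C. Of these, hsa-miR-122, the main liver miRNA, had 23.66 TPM in Hep3B, 9708 TPM in Hep3B-C, 46080 TPM in Huh7 and 13520 TPM in Huh7-C, whereas hsa-miR-885-5p ran the other way between the lines, with 186 counts in Hep3B and 159 in Hep3B-C against 2 in Huh7 and 0 in Huh7-C. The 2 endothelial markers, hsa-miR-126 and hsa-miR-126*, summed to 52.2, 103.3, 208.0 and 158.9 TPM, and the 4 muscle markers to 0.9534, 2.332, 6.119 and 12.97 TPM in the same order. In Hep3B-C against Hep3B, 4 of the 5 hepatocyte markers were called up, where 33.0% of all miRNAs were. With total miRNA counts 2 were called up (hsa-miR-122 and hsa-miR-122*) and 1 down (hsa-miR-885-5p), where 5.28% and 13.4% of all miRNAs were. The part of these markers in the levels of the family was not tested.

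The miRNAs whose pattern over the 4 libraries was most like that of each cluster were found among 263 other miRNAs with at least 10 counts in every library, by the root mean square difference of centred log2 TPM. For the chromosome 12 cluster they were hsa-miR-320b (0.27), hsa-miR-320c (0.28) and hsa-miR-320d (0.31). Hsa-miR-320b had 5.541 TPM in Hep3B and 32.84 TPM in Hep3B-C, with 4.801 TPM in Huh7 and 5.413 TPM in Huh7-C. For the chromosome 1 cluster the nearest of these were hsa-let-7c (1.95), hsa-miR-146a (2.32) and hsa-miR-99a (3.27). This cluster had 2 counts in each Huh7 library, so the filter left out any miRNA as low as it there. A miRNA of the same pattern, such as hsa-miR-483-5p, could therefore not be found in this way. Hsa-let-7c had 1564 TPM in Hep3B and 5690 TPM in Hep3B-C, with 11.11 TPM in Huh7 and 18.11 TPM in Huh7-C. All 3 were higher in both Hep3B libraries than in both Huh7 libraries, which follows from their choice by likeness to this cluster.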

How the data were processed

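Small RNA of 4 cell populations (Hep3B, Hep3B-C, Huh7, Huh7-C; 1 library each) was sequenced on the Illumina platform. After contaminants, redundant reads and reads under 18 nt had been discarded, the authors aligned reads with SOAP to the human assembly NCBI 36.1, set other small RNA classes aside and searched miRBase release 17. The authors deposited the raw read counts of 1733 miRNAs per library, without normalization.

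Here, TPM was computed as counts per 1e+06 of the total reads that the study gives. Pairs and lines were compared by Audic and Claverie's exact Poisson test (2-sided), with Benjamini-Hochberg adjustment over all miRNAs detected in either library. Where a library had 0 counts, 3 counts per library served as the floor for folds. Ratios within a library were compared by Fisher's exact test. A joint fit of both lines used the quasi-likelihood test of edgeR (TMM, parent line as a block, at least 10 counts in at least 2 libraries, adjusted p 0.05). All 4 libraries carry replicate number 1, so the pairing comes from the parent line and not from that number, and the deviations of same-line libraries from the mean of their cell state correlated at r = 0.833 over 443 miRNAs.

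The named miRNAs were the 5 members, their passenger strands, the marker and EMT lists (values given where a library had at least 10 counts) and, for each cluster, the 3 miRNAs of most similar pattern. The members and lists were chosen with earlier results of these data known. Alternatives were scaling by total miRNA counts, by TMM or by DESeq2 size factors, a count filter, edgeR's exact test with an assumed coefficient of variation of 0.2 or 0.4, summed strands, omission of the most abundant members and, for both lines, DESeq2, no filter, no block and each library left out. The change relative to the median was chosen after seeing the data. The tests were checked on simulated data. Sequences came from RefSeq (GRCh38.p14) and positions from GENCODE release 29. The deposited files hold no positions and none were converted. The sequence of hsa-miR-141* was not used here. Python 3.11.15 (numpy 2.4.6, scipy 1.17.1, pandas 2.3.3), R 4.3.3, edgeR 4.0.16 and DESeq2 1.42.0 were used.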

Additional observations from a re-analysis of the deposited data

Results flagged for a closer look

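Several miRNAs moved one way in Hep3B-C against Hep3B and the other way in Huh7-C against Huh7 (log2 fold-change, total reads as library sizes). With 1 library per condition the difference between the pairs was not tested for any of them. At this scaling the median miRNA itself had 1.42 in the first pair and -0.66 in the second. In the family, hsa-miR-141 went by 3.25 in Hep3B-C and by -0.62 in Huh7-C, where the interval of the latter included 0. Its passenger hsa-miR-141* had 1.99 with the 0 counts of Hep3B read as 3, and -2.82 (-8.31 to 0.14) from 7 and 1 counts.

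Among the other miRNAs named, the values in the Hep3B and Huh7 pairs were 2.24 and -0.11 for hsa-miR-182, 1.56 and -1.40 for hsa-miR-96, 2.12 and -1.36 for hsa-miR-143, and 0.62 and -0.21 for hsa-miR-222. Among the cell type markers they were 8.68 and -1.77 for hsa-miR-122, 4.91 (0 counts of Hep3B read as 3) and -2.46 for hsa-miR-122*, 1.23 and -0.60 for hsa-miR-192, 1.32 and -0.40 for hsa-miR-194, 1.0 and -0.34 for hsa-miR-126, and 0.77 and -1.08 for hsa-miR-126*. Hsa-miR-206 had -0.03 (-1.51 to 1.42) and 1.47, the former from 10 and 9 counts.

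With total miRNA counts as library sizes, several of these no longer ran in opposite directions. The values were 0.48 and 0.41 for hsa-miR-182, -0.20 and -0.88 for hsa-miR-96, -0.53 and -0.08 for hsa-miR-192 and -1.0 and -0.56 for hsa-miR-126*. The signs still differed, in the same sense, for hsa-miR-141 (1.49 and -0.10, the interval of the latter including 0), hsa-miR-143 (0.36 and -0.84, the interval of the latter including 0), hsa-miR-122 (6.92 and -1.25) and hsa-miR-206 (-1.79 and 1.99). With the 0 counts of Hep3B read as 3, the change was 8.86-fold up and -1.95 for hsa-miR-122*, and 1.17-fold up, not called, and -2.30 for hsa-miR-141*. Both intervals of hsa-miR-141* included 0. For hsa-miR-222 (-1.14 and 0.31), hsa-miR-194 (-0.45 and 0.11) and hsa-miR-126 (-0.76 and 0.18) both signs turned.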

How the results depend on the processing

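The fall of the chromosome 1 to chromosome 12 ratio in the Hep3B pair kept its direction with passenger strands added and without the most abundant member of each cluster, and needs no scaling. In that pair, total miRNA counts, TMM library sizes and DESeq2 size factors gave pooled log2 fold-changes of -0.53, -0.18 and 0.06 for the chromosome 1 cluster (1.28 with passengers) and of 1.43, 1.78 and 2.01 for the chromosome 12 cluster, and in the Huh7 pair 0.68, 0.48 and 0.74 for the latter. Under the same 3 scalings, and relative to the median, hsa-miR-200a had -0.82, -0.47, -0.23 and -0.47 and hsa-miR-429 had -1.44, -1.09, -0.86 and -1.10, and hsa-miR-200b had -0.29, 0.06 and 0.29 under the scalings. The number of members called down was 1 with total miRNA counts and with TMM. With total reads and an assumed coefficient of variation of 0.2, hsa-miR-200b, hsa-miR-200c and hsa-miR-141 stayed called up in edgeR's exact test. At 0.4 the number called up was 0 (adjusted p 0.29 for hsa-miR-200b, 0.0116 for hsa-miR-200c and 0.0152 for hsa-miR-141, edgeR's exact test). The share of all miRNAs called at these settings is not given here. The seed ratio turned to -1.12 without the most abundant member of each seed. In the Huh7 pair, hsa-miR-141 relative to the median was 0.04, and depth gave no value for the chromosome 1 members or for ratios that rest on them. In the fit over both lines, 0 members were called with the parent line as a block and 0 without it, where 5 of 443 miRNAs had an unadjusted p under 0.05, and this pairing changed no call. There hsa-miR-429 turned to 0.30 with total reads. With each library left out in turn, the values for hsa-miR-200c ran from -0.32 (without Hep3B-C) to 2.88. Those for hsa-miR-141 ran from -0.38 (without Hep3B-C) to 2.20. The chromosome 1 members were tested only without Huh7 and without Huh7-C. In that order they had -0.72 and 1.31 (hsa-miR-200b), -1.24 and 0.79 (hsa-miR-200a) and -1.87 and 0.16 (hsa-miR-429). The values of the chromosome 1 members rest on the Hep3B libraries, since they had 0 to 2 counts in the Huh7 libraries. These fits had no block, and the lone library of a state was assumed to vary like the others. The cause of these shifts was not tested.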
